A study of Mus musculus with 2 samples.

Results

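Complement is a set of plasma proteins that mark microbes for uptake, recruit leukocytes and perforate membranes. The classical pathway starts when C1q, built of A, B and C chains, binds antibody or a target surface. The alternative pathway starts on C3 itself: factor B (Cfb) joins cleaved C3 to form the convertase that cleaves more C3, and properdin (Cfp) stabilises that convertase. Cleavage of C3 frees C3a, a small peptide that acts on leukocytes through the C3a receptor (C3ar1). The liver supplies most plasma complement, while myeloid cells are a known source of properdin and tissue macrophages of C1q.

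The genes described here are C3, C3ar1, Cfp, Cfb, C1qa, C1qb and C1qc, chosen by name from the platform's gene symbols, with every probe set assigned to exactly 1 of them. Of the 7 genes, 6 had such a probe set, 11 probe sets in all, out of 18194 genes and 34958 single-gene probe sets on the array. C3, the protein on which all complement pathways meet, had none and was not analysed here. The samples were neutrophils with high Gr-1, no CD48 and no DAPI uptake, taken by sorting from bone marrow of C57BL/6 mice, an inbred strain, with no treatment of the mice in the labels. The study holds 1 group of 2 samples, 1 array from each of 2 independent experiments, called replicate 2 and replicate 1 here, with no other cell type or treatment to compare. The sources used here do not give the age or sex of the mice, or whether a sample was 1 mouse or a pool.

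Of the neutrophil markers, 10 of 10 measured genes, among them S100a8, Ngp and Mmp9, were above background on both arrays. Ly6g, which encodes the defining part of the Gr-1 antigen, was not analysed here. Markers of other cells were called in 3 of 7 measured monocyte genes, 2 of 7 dendritic cell genes and 1 of 7 B cell genes. They were called in 1 of 5 T and NK cell genes and 2 of 5 erythroid genes, where 40.4% of all measured genes were called. Proliferation genes were called in 7 of 10, all 7 higher on replicate 2, as were 4140 of all 7354 genes above background. Their median log2 difference, replicate 2 minus replicate 1, was 2.89, against 0.07 for all genes above background. The summed signal of the proliferation list was 9304 on replicate 2 and 1301 on replicate 1. Signals are linear MAS5 intensities, and background was taken as the 95th percentile of 87 probe sets for olfactory, vomeronasal, trace amine and taste receptors. This threshold was 131 on the array of replicate 2 and 108 on that of replicate 1. Levels of different genes were not compared, because probes differ in how strongly they bind. Differences are log2 signal of replicate 2 minus replicate 1. Each experiment had 1 array, so no difference could be tested.

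Cfp was the clearest of the genes, with both of its probe sets above background on both arrays, and C1qb was above it on 2 of 3 probe sets. C3ar1 lay at the threshold, and Cfb, C1qa and C1qc were below it on both arrays. Thus 2 of the 6 measured genes were above background on both arrays, where 40.4% of all measured genes were. By probe set it was 4 of 11, where 35.5% of all single-gene probe sets were. On replicate 2 alone 4 of 11 probe sets were above background (38.7% of all) and on replicate 1 alone 5 of 11 (40.9% of all). These shares do not set the genes apart from the array as a whole.

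**Figure D1:**
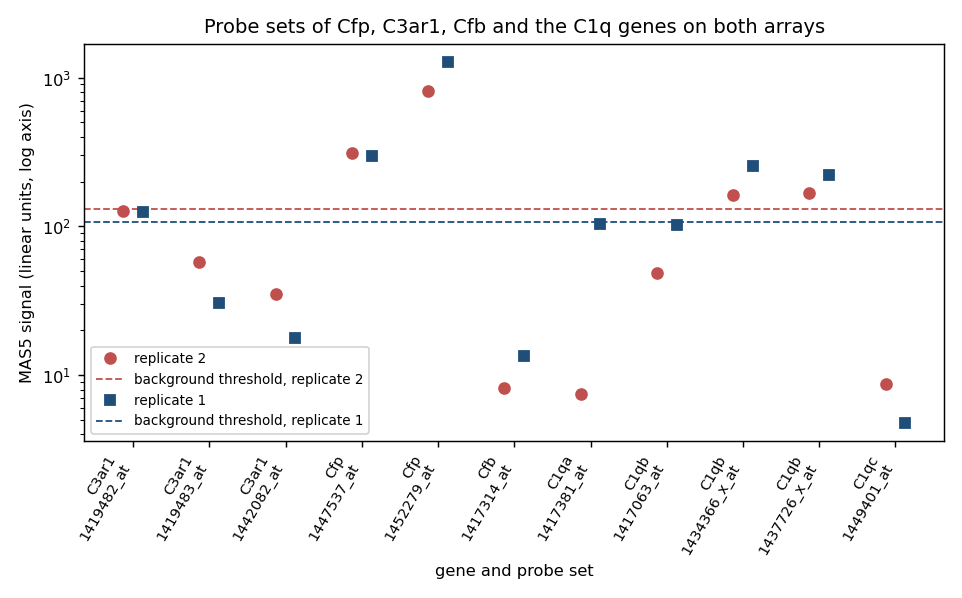
MAS5 signal (log axis) of the 11 probe sets of C3ar1, Cfp, Cfb, C1qa, C1qb and C1qc, with a circle for replicate 2 and a square for replicate 1, and dashed lines at the background threshold of each array (131 and 108). Both Cfp probe sets and the 2 C1qb probe sets ending in _x_at lie above the lines on both arrays, and Cfb and C1qc lie far below them.

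Cfp encodes properdin, the positive regulator of the alternative pathway, which neutrophils are known to store in their granules. Its probe set 1452279_at had signals of 815 on replicate 2 and 1274 on replicate 1, which is 6.20 and 11.8 times the thresholds of those arrays. On the log2 scale this was 9.99 ± 0.46 (SD, n = 2). Its second probe set, 1447537_at, had 313 on replicate 2 and 299 on replicate 1, or 2.38 and 2.78 times the thresholds, and 8.26 ± 0.04 on the log2 scale (SD, n = 2). Both probe sets thus read Cfp well clear of background in both experiments.

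The Cfp probe sets did not give the same difference between the experiments. 1452279_at was lower on replicate 2 by a log2 difference of -0.64, a signal 1.56-fold higher on replicate 1. 1447537_at differed by 0.06, a ratio of 1.04. Among the 14643 probe sets above background on both arrays, 7.16% were lower on replicate 2 by as much as 1452279_at or more. The log2 differences of those probe sets had an SD of 0.49. Genes of mature neutrophils were lower on the same array: of a list of 8 written with earlier results of these data known (Cxcr2, Il1b, Csf3r, Ccl6, Clec4d, Tlr2, Clec7a and Arg2) all 8 were above background and lower on replicate 2, with summed signals of 24540 on replicate 2 and 65699 on replicate 1. Secondary granule genes, a list also written with earlier results known, went the other way, 8 of 8 higher on replicate 2. Of all 7354 genes above background, 4140 were higher and 3214 lower on replicate 2. The part of the granule genes and of the mature genes in the Cfp values was not tested. In such sorted populations, fewer cells of a type and less RNA per cell cannot be told apart.

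The promoters of the 2 genes called above background on both arrays are printed here. They run from 250 bases before to 50 bases after the annotated gene start (RefSeq, GRCm38.p6, minus strand, 5′ to 3′). For C1qb the call rested on 2 of its 3 probe sets, with limits given below. Capitals mark GAGGAA or its reverse complement TTCCTC, the core of sites bound by the myeloid factor PU.1.
Cfp, chrX:20931506-20931805: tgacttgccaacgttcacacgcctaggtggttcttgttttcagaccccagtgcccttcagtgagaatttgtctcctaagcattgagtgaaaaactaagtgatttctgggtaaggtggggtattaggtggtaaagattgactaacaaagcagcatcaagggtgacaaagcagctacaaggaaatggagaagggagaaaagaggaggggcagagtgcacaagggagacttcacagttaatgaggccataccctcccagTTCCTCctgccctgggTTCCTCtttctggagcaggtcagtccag
C1qb, chr4:136886151-136886450: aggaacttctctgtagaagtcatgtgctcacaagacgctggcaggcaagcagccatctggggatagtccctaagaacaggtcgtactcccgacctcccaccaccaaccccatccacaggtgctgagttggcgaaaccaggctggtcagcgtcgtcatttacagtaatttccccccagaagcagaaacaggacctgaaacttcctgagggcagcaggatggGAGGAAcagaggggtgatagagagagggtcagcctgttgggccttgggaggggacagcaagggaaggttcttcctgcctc
The Cfp promoter held 2 matches, both within the 50 bases after the start, and the C1qb promoter 1, before the start. The C1qc promoter held 1 and those of C3ar1 and C3 none, while the promoters of C1qa and Cfb were not analysed here. Of all 32851 promoters in the table, 28.3% held at least 1 match on either strand, and a match is only a description of the letters in this window.

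C1qb encodes the B chain of C1q. Its probe set 1434366_x_at had signals of 163 on replicate 2 and 256 on replicate 1, or 7.68 ± 0.46 on the log2 scale (SD, n = 2). 1437726_x_at had 169 on replicate 2 and 220 on replicate 1, or 7.59 ± 0.27 (SD, n = 2). Both lay at 1.24 to 2.38 times the thresholds. The suffix _x_at marks probe sets whose probes can also bind other transcripts. The C1qb probe set without that suffix, 1417063_at, was below background on both arrays, with 48.3 on replicate 2 and 102 on replicate 1. The call of C1qb therefore rested on the _x_at probe sets alone, and without them Cfp was the 1 gene above background.

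The partner chains of C1qb were not above background on either array. C1qa, the A chain, had signals of 7.45 on replicate 2 and 104 on replicate 1, the second at 0.966 times its threshold. C1qc, the C chain, had 8.75 on replicate 2 and 4.81 on replicate 1. The 3 chains are made from neighbouring genes on chromosome 4, in the order C1qb, C1qc and C1qa with no other protein-coding gene between them, and assemble in equal numbers into C1q. Their probe sets thus gave different calls for 1 protein complex, and no fold is given for C1qa or C1qc because both arrays were below background.

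Both C1qb probe sets above background were lower on replicate 2. The log2 difference was -0.65 for 1434366_x_at and -0.39 for 1437726_x_at. Among probe sets above background, 7.03% and 16.9% were lower on replicate 2 by as much or more. Of 13 macrophage markers, 4 were above background on both arrays (Adgre1, Cd68, Vcam1 and Slc40a1), and the brightest probe set of each was lower on replicate 2, as were those of 3214 of the 7354 genes above background. Vcam1 was close between the arrays, with a log2 difference of -0.03 on that probe set, and its probe set 1451314_a_at read higher on replicate 2, with 134 against 97.4 on replicate 1, below background there. Adgre1, which encodes the F4/80 antigen, had 217 on replicate 2 and 627 on replicate 1, a log2 difference of -1.53. The summed signal of the list was 6710 on replicate 2 and 10189 on replicate 1. Most of it on each array came from Slc40a1 alone, with 5233 on replicate 2 and 7747 on replicate 1. Mertk, Mrc1, Marco, Timd4, Spic and Axl were below background on both arrays, and Cd163, Cd5l and Siglec1 were above it on 1 array. Of 7 monocyte markers, 3 were above background on both arrays, of which Csf1r and F13a1 were lower and Ccr2 higher on replicate 2. Ccr2 was called on 1460067_at alone, and its other probe sets were below background on both arrays. The summed signal of the monocyte list was 2723 on replicate 2 and 5848 on replicate 1. Csf1r, which encodes the M-CSF receptor, was lower on replicate 2 on all 3 of its probe sets, with 1928 on replicate 2 and 5020 on replicate 1 on 1419872_at. That probe set alone gave most of the monocyte sum on each array. Irf8, Klf4 and Ms4a6c were below background on both arrays. The part of macrophages and monocytes in the C1qb values was not tested.

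**Figure D2:**
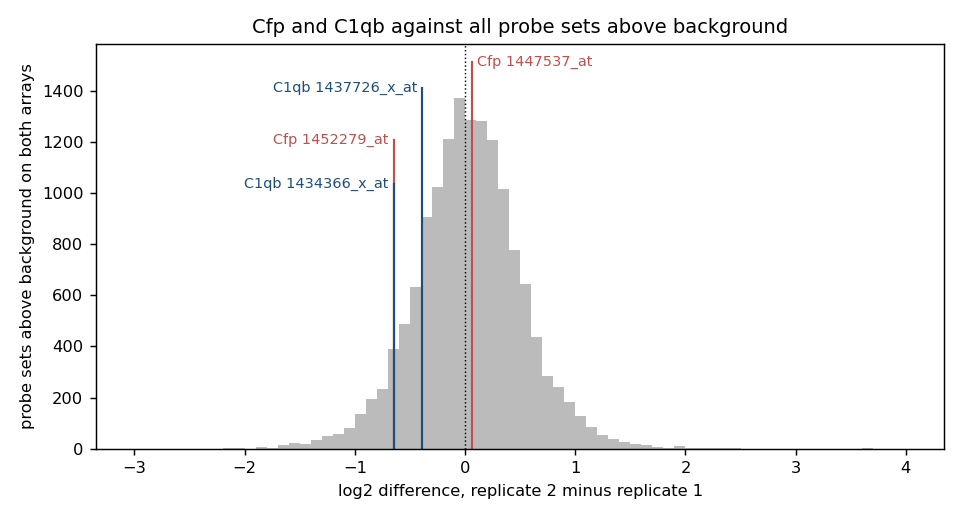
Histogram of the log2 difference (replicate 2 minus replicate 1) of the 14643 probe sets called on both arrays, with lines at the 2 Cfp and 2 C1qb probe sets. Both C1qb probe sets and 1452279_at of Cfp lie left of 0, between -0.65 and -0.39, and 1447537_at of Cfp lies at 0.06.

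Of the 4 probe sets of these genes above background on both arrays, 3 were lower on replicate 2, where 46.9% of all probe sets above background were. With the authors' scaling none of the 4 differed over 2-fold, where 2.77% of all such probe sets were over 2-fold higher on replicate 2 and 2.00% over 2-fold lower. The arrays had been scaled to equal brightness by the authors, so these differences are relative to that scaling. With scaling to 9 hybridisation control probe sets instead, the median of all probe sets above background moved by more than 0.1 to -0.67, and all 4 were lower on replicate 2, at -1.35 to -0.64. That median was 0.04 with the authors' scaling, close to 1447537_at of Cfp. A rescaling moves every probe set and the median by the same amount, so this distance could not change. With the control scaling, 1452279_at of Cfp lay at -1.35 and the C1qb probe sets 1434366_x_at and 1437726_x_at at -1.35 and -1.09. The share of all probe sets over 2-fold lower under that scaling was not computed. A shift of all probe sets leaves the shares with as large a difference at 7.16%, 7.03% and 16.9% for these 3.

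C3ar1 encodes the G protein-coupled receptor for C3a. Its probe set 1419482_at had almost the same signal in both experiments, 127 on replicate 2 and 125 on replicate 1, or 6.98 ± 0.01 on the log2 scale (SD, n = 2). It was called on replicate 1 alone, at 1.16 times that threshold, and missed the call on replicate 2 at 0.963 times the higher threshold there. The signals thus differed by 0.01 on the log2 scale, while the thresholds of the arrays were 131 and 108. The other C3ar1 probe sets were below background on both arrays. 1419483_at had 57.7 on replicate 2 and 30.7 on replicate 1, and 1442082_at had 35.4 on replicate 2 and 17.9 on replicate 1. At this signal the arrays do not settle whether C3ar1 was expressed.

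Cfb encodes factor B, the protease of the alternative pathway convertase. Its 1 probe set had signals of 8.21 on replicate 2 and 13.6 on replicate 1, at most 0.126 times the threshold. Cfp and Cfb act in the same convertase, and of the pair Cfp was above background and Cfb was not. Cfd, which encodes the protease that cleaves factor B, was not analysed here.

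Over 5 lists of complement genes, which hold these genes too, 14 of 41 measured genes were above background on both arrays (34.1%), against 40.4% of all measured genes. Of the 14, 8 were higher and 6 lower on replicate 2 on their brightest probe set, and the median log2 difference was 0.03, against 0.07 for all genes above background. Receptors were above background in 4 of 8 and regulators in 5 of 11. Classical and lectin pathway components were in 3 of 14, C3 and alternative pathway components in 1 of 2 and terminal components in 1 of 6. C5ar1, the receptor for C5a, was above background on both of its probe sets, unlike C3ar1. Its probe set 1439902_at had signals of 1841 on replicate 2 and 2474 on replicate 1, and 1422190_at had 648 on replicate 2 and 497 on replicate 1, so they differed in opposite directions. Of the lectin pathway's ficolins, Fcna had 198 on both replicate 2 and replicate 1. Fcnb, which encodes ficolin B of myeloid cells, had 355 on replicate 2 and 147 on replicate 1. Fcnb was the only one of the 14 genes over 2-fold apart, and 404 of all 7354 genes above background were. Liver genes were above background in 1 of 10 (Apob), with Alb and Ttr below it on both arrays.

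**Figure D3:**
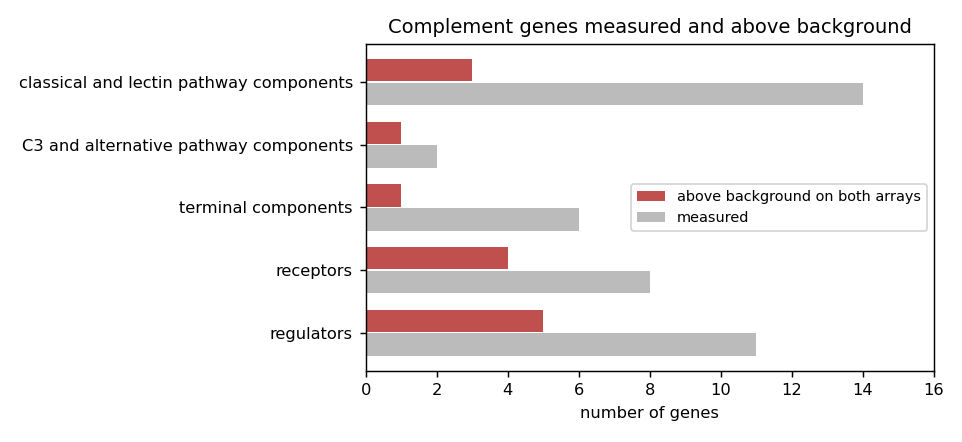
Number of complement genes measured (grey) and above background on both arrays (red) in 5 lists of the pathway. Receptors (4 of 8) and regulators (5 of 11) had more genes above background than classical and lectin components (3 of 14) or terminal components (1 of 6). Over all measured genes the share was 40.4%, and lists this small do not set the pathway parts apart.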

How the data were processed

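Total RNA of each sample was hybridised to 1 Affymetrix expression array, per the labels' protocols. The deposited table holds linear signal intensity from MAS5, which the submitters' processing notes name without a version. On the values, the mean after trimming 2% of probe sets at each end was 250.0 on each array, so brightness had been equalised by the authors. Names came from GEO's platform annotation, in which 34958 of 45101 probe sets had 1 gene, 932 several and 9211 no name. All 6 measured genes had their gene identifier under the same symbol in the RefSeq gene table (GRCm38.p6). Signals were floored at 1 before log2. A gene counted as above background through any 1 of its probe sets, and its brightest probe set gave its difference. Genes and lists were chosen with earlier results of these data known. Named were all probe sets of the 7 genes, and the complement lists by counts with values for most genes above background on 1 or both arrays. Marker lists were given by counts, with values for only some of the markers. No genes of similar pattern were named, since 2 arrays give 1 difference per gene. Alternatives were other background percentiles or genes, other scalings, 32 added to the signal, no _x_at or _s_at probe sets and single arrays. The 2 arrays limit the precision, and the spread between them holds everything that differed between the experiments. The procedure was tested on simulated data whose expressed signals lay clear of background, so calls near the threshold were not covered. Python 3.11.15, numpy 2.4.6 and pandas 2.3.3 were used.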

Additional observations from a re-analysis of the deposited data

Results flagged for a closer look

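A probe set assigned to both C1ra and C1rb, genes of the C1r protease that C1q activates, was outside the single-gene measurements. This probe set, 1456437_x_at, carries the suffix of probe sets that can bind other transcripts. It exceeded the background of each array, with signals of 204 on replicate 2 and 158 on replicate 1. The probe set of C1ra alone was above background on replicate 1 only, with 33.0 on replicate 2 and 111 on replicate 1.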

How the results depend on the processing

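The count of 2 genes above background became 1 (Cfp) with the 99th percentile of the sensory receptors and without _x_at and _s_at probe sets. The 4 probe sets became 2 in both settings. Of all measured genes 32.7% and 38.3% were above background in these settings, against 40.4% as reported. The count was 3 genes, with C3ar1 added, with the 90th percentile (45.4% of all genes), with liver genes as background (42.8%) and on replicate 1 alone (46.3%). Across single arrays the count ranged from 2 to 3 genes and from 4 to 5 probe sets. The 14 complement genes ranged from 14 to 19, with 44.2% of all genes above background on replicate 2 alone and 46.3% on replicate 1 alone. Cfp was above background in all of these settings. The count of probe sets lower on replicate 2 was 3 of 4 as reported, 4 of 4 with median scaling or hybridisation controls, and 6 of 11 with no filter on background. The median log2 difference of all probe sets above background was 0.04 as reported, -0.09 with median scaling and -0.67 with hybridisation controls. The whole array thus shifted with these counts. The difference of 1447537_at of Cfp was 0.06 as reported and -0.07 with median scaling. The causes were not tested. No paired analysis was possible because the study has 1 group. C3ar1, and C1qa on replicate 1, lay close to the threshold, so their calls are limited by signal over background.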

Other observations

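Among the complement regulators, Cd55, Cr1l, Cd59a, Cd46 and Clu were above background on both arrays. Cd55, the decay accelerating factor that dissociates the convertases, had signals on its brightest probe set of 1236 on replicate 2 and 1016 on replicate 1, and all 3 of its probe sets were above background on both arrays. Cr1l, the rodent regulator Crry, had 1886 on replicate 2 and 2455 on replicate 1. Cd59a, which blocks the membrane attack complex, had 221 on replicate 2 and 171 on replicate 1 on its brightest probe set. Its other probe set, 1429830_a_at, was below background on both arrays, with 59.9 on replicate 2 and 47.3 on replicate 1. Cd46 had 140 on replicate 2 and 166 on replicate 1, close to the thresholds. Clu, which encodes the secreted regulator clusterin, had 354 on replicate 2 and 308 on replicate 1 on its 1 probe set above background, 1454849_x_at. Serping1, the C1 inhibitor, was above background on replicate 1 alone, with 114 on replicate 2 and 113 on replicate 1. Cd55b, Cfi, C4bp, Vtn and Cpn1 were below background on both arrays.

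Both chains of complement receptor 3 were bright and close between the arrays. Itgam had 6868 on replicate 2 and 6822 on replicate 1, and Itgb2 15549 on replicate 2 and 15098 on replicate 1. Itgax, the alpha chain of complement receptor 4, was above background on replicate 1 alone, with 130 on replicate 2 and 174 on replicate 1. A probe set assigned to both C4a and C4b was likewise above it on replicate 1 alone, with 116 on replicate 2 and 151 on replicate 1. Hc, which encodes C5, had 269 on replicate 2 and 255 on replicate 1 and was the 1 terminal component above background.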
